A study of Mus musculus with 32 samples.

Results

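The 8 genes described here encode parts of the pathway that displays peptides on MHC class II molecules. They are the class II chains H2-Aa, H2-Ab1 and H2-Eb1, the peptide exchange factors H2-DMa and H2-DMb1, the invariant chain Cd74, the class II transactivator Ciita and the co-stimulatory receptor ligand Cd86. They were listed by symbol, with earlier results of these data known, and they are 8 of the 52636 genes in the count table. All 8 passed the filter on low counts and are among the 15599 genes tested.

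RNA from mouse liver was sequenced as polyadenylated libraries, 1 per mouse, in 8 groups of 4 that cross genotype, hormone and injection. The genotypes were wild type (WT) and a knockout of Thrb, the gene of thyroid hormone receptor beta (KO), with no further detail of the allele or strain in the labels. All 32 mice received a PTU/LID diet, which blocks synthesis of thyroid hormone, so the groups without hormone were hypothyroid controls and not normal mice. Triiodothyronine (T3), the active hormone, was given in the drinking water at 1 µg/ml in the last week, or PBS in its place, and carbon tetrachloride (CCl4), a hepatotoxin that causes fibrosis, was injected at 0.4 µl/g, 2 times a week for 4 weeks, 9 injections in all, or oil in its place, with RNA taken 24 hours after the last injection. The groups are therefore WT PBS oil, WT PBS CCl4, WT T3 oil and WT T3 CCl4, and the same 4 in KO mice.

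MHC class II molecules are pairs of an alpha and a beta chain that present peptides from endocytosed protein to CD4+ T cells. Cd74 fills the peptide groove until lysosomal proteases such as cathepsin S degrade it, and the H2-DM pair then exchanges its last fragment for other peptides. Dendritic cells, B cells and macrophages carry most class II protein, Ciita is the coactivator that switches these genes on, often after interferon gamma, and in liver the resident macrophages (Kupffer cells) and dendritic cells are the best known presenting cells.

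Class II promoters are known for a shared module in which an X box, bound by the RFX complex, lies upstream of a Y box, bound by NF-Y, and Ciita docks on both. The RefSeq promoter table of build GRCm38.p6 held entries for 4 of the 8 genes, namely H2-Aa, H2-Eb1, H2-DMa and H2-DMb1. The 150 bases before the start are shown for 2 class II chains, H2-Aa and H2-Eb1. H2-Eb1 holds exact matches to both core motifs, and H2-Aa an exact match to the Y box core only. Their levels had a correlation of 0.98 over the 32 livers. The H2-Aa window is chr17:34287824-34287973 on the minus strand and the H2-Eb1 window is chr17:34305717-34305866 on the plus strand, both read 5′ to 3′ along the gene. Capitals mark matches to the X box core, the Y box core ATTGG, which reads as CCAAT on the other strand, and the cyclic AMP response element TGACGTCA.
H2-Aa: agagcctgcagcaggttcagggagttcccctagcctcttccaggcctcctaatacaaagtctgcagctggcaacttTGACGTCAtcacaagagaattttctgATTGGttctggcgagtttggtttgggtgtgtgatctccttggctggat
H2-Eb1: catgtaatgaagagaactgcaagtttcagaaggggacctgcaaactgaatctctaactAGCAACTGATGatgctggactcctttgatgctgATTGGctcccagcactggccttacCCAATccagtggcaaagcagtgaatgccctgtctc
In H2-Eb1 the X box core began 92 bases before the start and the Y box core 59 bases before it, so that the motifs began 33 bases apart. A further CCAAT, which reads as ATTGG on the other strand, began 35 bases before the start on the printed strand. H2-DMb1 held the X box core AGTAACTGATG at 95 bases and ATTGG at 61 bases before its RefSeq start, 34 bases apart. Its window is not printed because the GENCODE gene begins at 34153072, inside that window. H2-Aa held ATTGG at 48 bases and TGACGTCA at 74 bases, and no match to the X box core in the 250 bases searched. H2-DMa held ATTGG at 198 bases before its RefSeq start, in chr17:34125268-34125517. That window lies inside the GENCODE gene, which spans 34119541 to 34139101. Over 32851 mouse promoters of the same 250 bases, searched on both strands, 0.816% held the X box core, 33.8% ATTGG and 1.55% TGACGTCA, a motif searched for after the sequences had been read. A match is a description of letters and not a measured binding site. The search took exact letters only, so the missing match does not show that H2-Aa lacks an X box.

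The libraries held 16985162 to 26118055 counts. Levels are in CPM, counts scaled to a common library size, with TMM factors that correct for the make-up of each library, and differences are log2 fold changes ± standard error (SE) from edgeR's quasi-likelihood test. A gene was called when its Benjamini-Hochberg adjusted p over the 15599 genes was below 0.05. Thrb kept reads in the KO libraries, with 59.02 ± 7.09 CPM (mean ± SD, n = 4) in WT PBS oil and 35.9 ± 4.94 CPM in KO PBS oil. The KO difference in Thrb was called on T3 in oil (adjusted p = 0.0207) and T3 in CCl4 (adjusted p = 0.000966), and was not called on PBS (adjusted p = 0.167 in oil and 0.6 in CCl4). WT T3 oil replicate 4 and WT PBS CCl4 replicate 4 stood apart in class II level. Their summed CPM of H2-Aa, H2-Ab1, H2-Eb1 and Cd74 was 349.7 and 189.7, which is 2.03 and 2.15 times the median of the other 3 mice of the group. For comparisons that rest on these 2 mice, some values without 1 or both of them are also given. WT PBS CCl4 replicate 2 was the library farthest from its group mean over all genes, and its effect is given where it changes a count.

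The 4 genes with the highest levels per length were Cd74 and the class II chains. In WT PBS oil, Cd74 (ENSMUSG00000024610, chromosome 18, 60803848 to 60812652) had 31.1 CPM per kb of exon, H2-Eb1 (ENSMUSG00000060586, chromosome 17, 34305867 to 34316674) had 10.6, H2-Ab1 (ENSMUSG00000073421, chromosome 17, 34257689 to 34269419) had 8.38 and H2-Aa (ENSMUSG00000036594, chromosome 17, 34282744 to 34287823) had 7.33. The exchange factors were lower, with H2-DMb1 (ENSMUSG00000079547, chromosome 17, 34153072 to 34160230) at 1.22 and H2-DMa (ENSMUSG00000037649, chromosome 17, 34119541 to 34139101) at 0.886 CPM per kb. Cd86 (ENSMUSG00000022901, chromosome 16, 36603869 to 36666081) had 0.629 CPM per kb, and Ciita (ENSMUSG00000022504, chromosome 16, 10480059 to 10528418) had 0.135, from 4 to 123 counts a library, so its values carry the widest counting error of the 8. The ratio of H2-Aa to H2-Ab1, which encode the alpha and beta chain of 1 dimer, lay between 0.681 and 1.1 (median 0.897) in CPM per kb over the 32 libraries. The ratio of H2-DMa to H2-DMb1 lay between 0.477 and 1.07, and that of Cd74 to H2-Ab1 between 3.4 and 4.76. H2-Eb1 had up to 1339 counts in a library, while the gene of its partner chain, listed as H2-Ea-ps and annotated as a polymorphic pseudogene, had 0 counts in all 32 libraries together. For a single library a count of 0 allows up to 0.115 to 0.177 CPM, taking 3 counts as the floor and covering counting error only.

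All 8 genes had their highest mean in WT T3 oil or KO T3 oil. The order of the 8 group means has 7 neighbouring steps for each gene, and the mice of neighbouring groups overlapped in every step except between KO T3 CCl4 and WT PBS CCl4 for Cd86. The summed level of the 8 genes was 85.6 to 171 CPM in WT PBS oil, 163 to 387 in WT T3 oil, 86.8 to 206 in WT PBS CCl4 and 145 to 242 in WT T3 CCl4. In KO mice it was 92.9 to 153 CPM in PBS oil, 199 to 307 in T3 oil, 89.5 to 128 in PBS CCl4 and 105 to 148 in T3 CCl4. The KO T3 oil mice lay above all KO mice of the other 3 groups in this sum, while the WT groups overlapped.

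**Figure D1:**
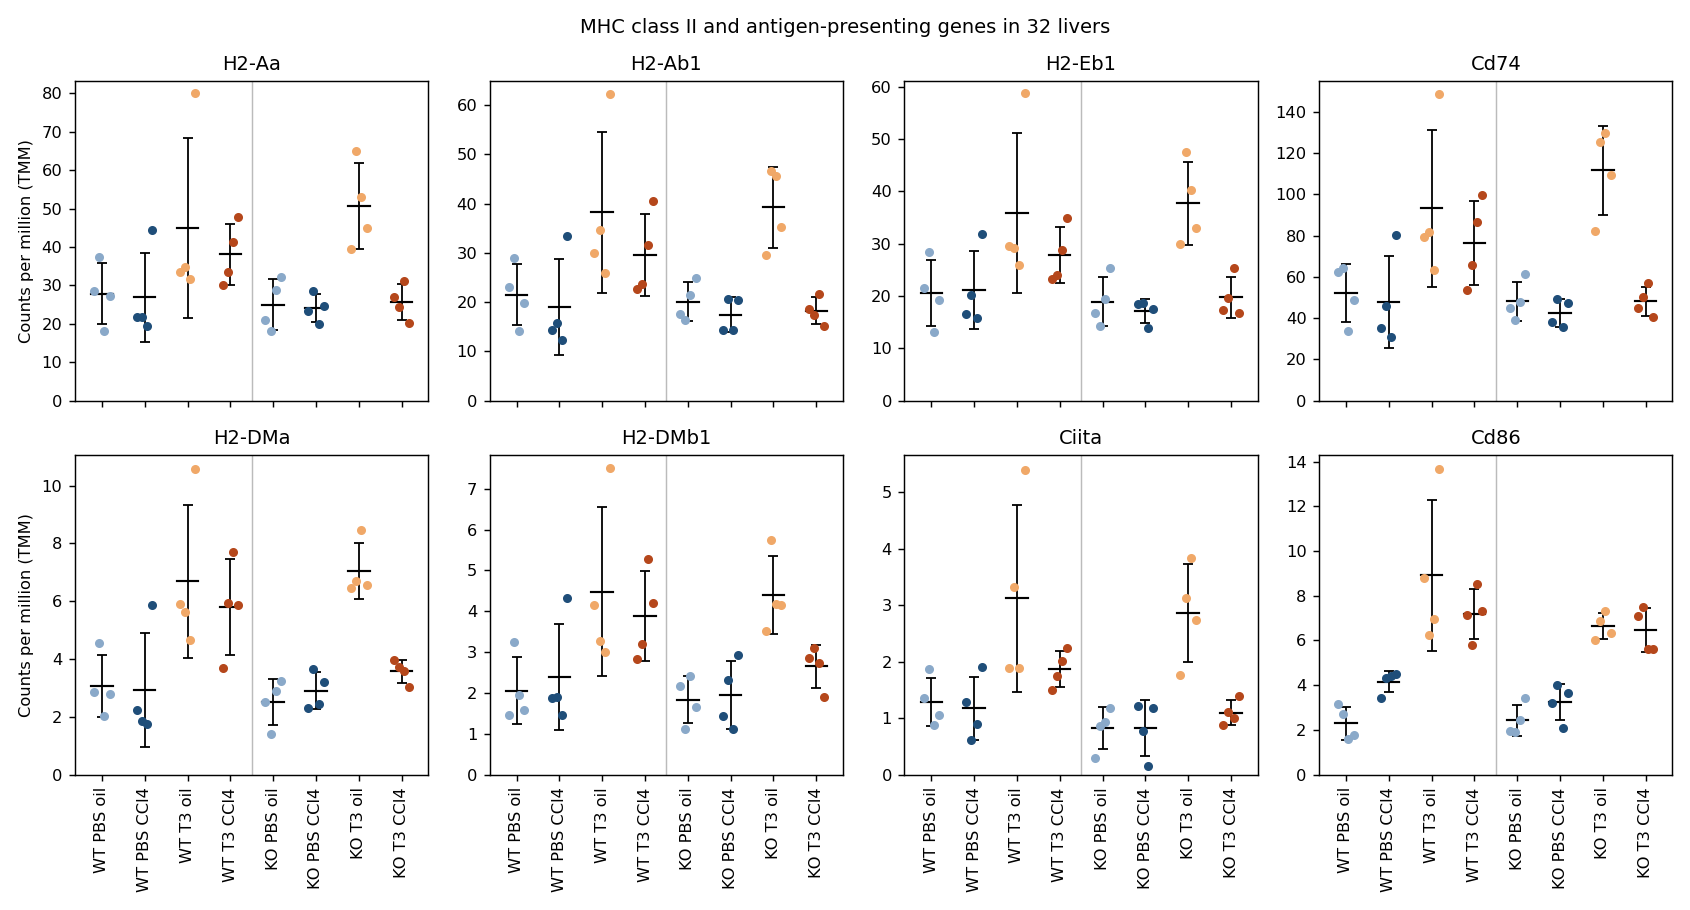
Level of each of the 8 genes in CPM (vertical axes, linear, from 0) in the 8 groups; each point is 1 mouse, and bars show the mean and SD of 4 mice. The T3 oil groups of both genotypes hold the highest means in every panel but Cd86, where KO T3 oil lies below WT T3 CCl4. WT T3 oil replicate 4 is the highest point in all 8 panels, and in Cd86 all 4 T3 groups lie high.

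T3 raised class II and antigen-presenting genes in livers that had received oil, in both genotypes. In KO mice all 8 genes rose, where 10.6% of all genes tested rose, and all 8 separated completely between T3 and PBS mice (12.8% of all genes). In WT mice 7 of 8 rose, where 19% of all genes rose, with only H2-Aa short of the threshold (all 8 rose by DESeq2), and 3 of 8 separated completely (20.5% of all genes). The median log2 fold change of the 8 genes was 1.23 in KO and 0.98 in WT mice, beside 0.01 and -0.02 over all genes tested. In bulk RNA, more presenting cells in the liver and more of these transcripts per cell cannot be told apart.

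The class II chains form the peptide-binding dimers. H2-Ab1 stood at 17.7, 16.3, 21.4 and 24.9 CPM in the 4 KO PBS oil mice and at 29.5, 46.6, 45.7 and 35.2 in the 4 KO T3 oil mice. It stood at 23.1, 28.9, 14.2 and 19.9 CPM in WT PBS oil and at 30.01, 34.7, 25.99 and 62.2 in WT T3 oil. Every KO T3 mouse was above every KO PBS mouse, whereas in WT mice the groups overlapped and 1 T3 mouse was far above the other 3. The rise in H2-Ab1 was 0.97 ± 0.28 in KO mice (adjusted p = 0.0169) and 0.83 ± 0.28 in WT mice (adjusted p = 0.0224). H2-Eb1, a beta chain, ranged over 14.3 to 25.3 and 29.9 to 47.6 CPM in KO PBS and T3 mice and rose by 0.99 ± 0.26 (adjusted p = 0.0068). In WT mice H2-Eb1 ranged over 13.1 to 28.3 and 25.9 to 58.8 CPM and rose by 0.81 ± 0.26 (adjusted p = 0.0142). H2-Aa, the alpha chain paired with H2-Ab1, was at 21.1, 18.01, 28.7 and 32.2 CPM in KO PBS oil and 39.5, 65.1, 53.1 and 44.9 in KO T3 oil, without overlap. In WT mice it was at 28.5, 37.5, 18.2 and 27.2 CPM on PBS and 33.4, 34.9, 31.7 and 79.95 on T3, with overlap. Its change was 1.02 ± 0.28 in KO mice (adjusted p = 0.0112) and 0.69 ± 0.28 in WT mice (adjusted p = 0.0536, not called).

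Cd74, which chaperones the new dimers, was the most abundant of the 8. It stood at 44.7, 38.98, 47.5 and 61.4 CPM in KO PBS oil and 82.1, 125, 129.6 and 109 in KO T3 oil, and rose by 1.21 ± 0.27 (adjusted p = 0.00195). In WT mice it stood at 62.4, 64.2, 33.7 and 48.8 CPM on PBS and 79.1, 81.5, 63.2 and 149 on T3, and rose by 0.83 ± 0.27 (adjusted p = 0.0158). The KO groups did not overlap, and in WT mice 1 T3 mouse lay below the highest PBS mouse. H2-DMa, the alpha chain of the exchange factor, was at 2.51, 1.42, 2.90 and 3.25 CPM in KO PBS oil and 6.45, 6.68, 8.47 and 6.55 in KO T3 oil, and at 2.87, 4.55, 2.02 and 2.77 in WT PBS oil and 5.90, 5.63, 4.65 and 10.6 in WT T3 oil. T3 mice lay above PBS mice in both genotypes without overlap, and H2-DMa rose by 1.48 ± 0.33 (adjusted p = 0.00222) and 1.14 ± 0.33 (adjusted p = 0.00761). Its partner H2-DMb1 rose by 1.24 ± 0.36 in KO mice (adjusted p = 0.0151) and 1.13 ± 0.36 in WT mice (adjusted p = 0.0139). The strand setting of the counting is not known, and Brd2 on the opposite strand shares 360 of the 3448 exon bases of H2-DMa. Brd2 was not called for T3 in either oil comparison (adjusted p = 0.983 in WT and 0.0584 in KO mice).

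Ciita, the transactivator of the class II genes, was at 0.301, 0.863, 0.924 and 1.18 CPM in KO PBS oil and 1.76, 3.14, 3.84 and 2.74 in KO T3 oil. In WT mice it was at 1.35, 1.86, 0.884 and 1.05 on PBS and 1.89, 3.32, 1.89 and 5.40 on T3. T3 mice were above PBS mice without overlap in both genotypes, although 2 WT T3 mice were barely above the highest PBS mouse. Ciita rose by 1.81 ± 0.45 in KO mice (adjusted p = 0.00504) and 1.29 ± 0.43 in WT mice (adjusted p = 0.02). Dexi, on the opposite strand, shares 329 of the 9535 exon bases of Ciita and rose with T3 as well, by 1.90 in WT oil (adjusted p = 2.42e-08) and 0.70 in KO oil (adjusted p = 0.0138). Its part in the Ciita values was not tested.

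Cd86 gives T cells a co-stimulatory signal through CD28 and is not a class II gene. It stood at 3.15, 2.69, 1.60 and 1.78 CPM in WT PBS oil and 8.78, 6.24, 6.95 and 13.7 in WT T3 oil, and at 1.96, 1.91, 2.42 and 3.43 in KO PBS oil and 6.04, 6.86, 7.34 and 6.32 in KO T3 oil. No T3 mouse overlapped a PBS mouse of its genotype. The rise was 1.96 ± 0.25 in WT mice (adjusted p = 3.58e-07), a fold of 3.89, and 1.45 ± 0.25 in KO mice (adjusted p = 0.000105). The difference between the genotypes in the T3 response on oil was not called for any of the 8 genes by edgeR or DESeq2, with 0 at an unadjusted p below 0.05 and values from -0.51 to 0.53 (12.2% of all genes called). Without both mice that stood apart these values ran from -0.22 to 0.93.

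The WT result on oil rested on few mice. Without WT T3 oil replicate 4 only Cd86 was called (1.68, adjusted p = 2.69e-06), and the other 7 genes kept positive values between 0.26 for H2-Aa and 0.88 for Ciita, with adjusted p from 0.0594 for H2-DMa to 0.465 for H2-Aa. Without WT PBS oil replicate 3 there were 3 called genes, without WT PBS oil replicate 4 there were 5, and without any 1 of WT T3 oil replicates 1 to 3 or WT PBS oil replicate 2 all 8 were called. In KO mice the count fell to 5 without KO PBS oil replicate 2, and the genes lost were H2-Aa, H2-Ab1 and H2-DMb1 (adjusted p = 0.0505, 0.0614 and 0.0622). It was 6 without KO T3 oil replicate 2, and 7 without KO T3 oil replicate 3 or KO PBS oil replicate 1.

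**Figure D2:**
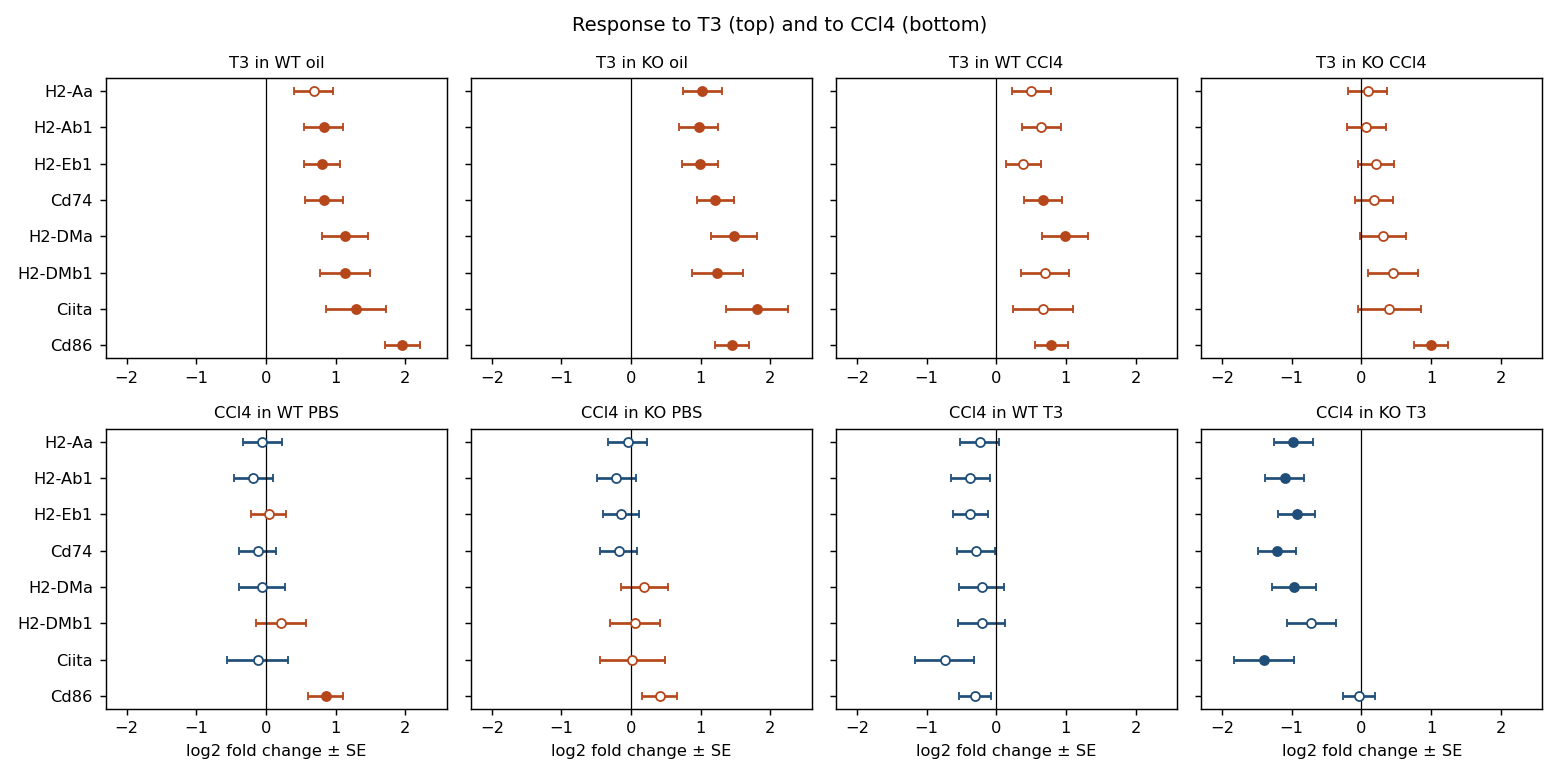
Log2 fold change ± SE (horizontal axes) of each gene with T3 (upper row) and with CCl4 (lower row) in the 4 settings of each; filled points were called at an adjusted p below 0.05 and open points were not. All 8 points are filled for T3 in KO oil, 6 are filled to the left of 0 for CCl4 in KO T3, and Cd86 is filled in 5 of the 8 panels.

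With all mice in the fit, T3 moved fewer of these genes past the threshold in livers injected with CCl4 than on oil. In WT mice this order depended on the 2 mice that stood apart. The tests of the difference from oil are given with the other differences between responses. In WT mice 3 of 8 rose (20% of all genes rose), namely Cd86, Cd74 and H2-DMa, and 1 of 8 separated completely (16.6% of all genes). In KO mice 1 of 8 rose, Cd86 (1.77% of all genes rose), and it separated completely (5.5% of all genes). The median of the 8 log2 fold changes was 0.67 in WT and 0.26 in KO mice, beside -0.06 and -0.03 over all genes. Without both mice that stood apart the WT order reversed, with 2 of 8 genes called on oil and 7 on CCl4. The WT medians were then 0.64 on oil and 1.02 on CCl4. Some cell markers moved with T3 here as well, and their part in these results was not tested. All 11 Kupffer cell markers rose in WT and 4 of 11 in KO mice, and 6 of 8 hepatocyte markers rose in WT mice, while 2 of 8 pan-leukocyte, 1 of 9 B-cell and 1 of 10 dendritic cell markers rose in WT and 0 of each in KO mice. Of 11 markers of monocyte-derived macrophages 1 rose and 3 fell in WT mice, and 0 was called in KO mice. In WT mice 20% of all genes rose and 21.7% fell. The WT counts of the pan-leukocyte, B-cell, dendritic cell and monocyte-derived macrophage lists are close to or below these shares, and are no result about those lists.

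Cd86 was at 3.45, 4.33, 4.40 and 4.48 CPM in WT PBS CCl4 and 7.13, 5.82, 8.55 and 7.30 in WT T3 CCl4. In KO mice it was at 3.22, 3.996, 2.10 and 3.66 on PBS and 7.09, 7.50, 5.63 and 5.62 on T3. The T3 mice were higher in both genotypes without overlap. The rise was 0.79 ± 0.24 in WT mice (adjusted p = 0.00822) and 1.00 ± 0.24 in KO mice (adjusted p = 0.0199). The KO call was lost without KO T3 CCl4 replicate 1 (adjusted p = 0.0501) or replicate 2 (0.0781), and without KO PBS CCl4 replicate 1 (0.0588) or replicate 3 (0.0504).

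Cd74 was at 35.3, 45.6, 30.9 and 80.1 CPM in WT PBS CCl4 and 53.8, 65.9, 86.4 and 99.4 in WT T3 CCl4, and rose by 0.67 ± 0.27 (adjusted p = 0.0444). H2-DMa was at 2.24, 1.86, 1.75 and 5.86 CPM in WT PBS CCl4 and at 3.68, 5.93, 7.70 and 5.88 in WT T3 CCl4, and rose by 0.99 ± 0.33 (adjusted p = 0.0162). In both genes the overlap came from 1 PBS mouse, replicate 4, which was the highest of its group. The class II chains and H2-DMb1 and Ciita had values from 0.39 to 0.70 in WT mice, none of them called. In KO mice the 7 genes other than Cd86 had values from 0.07 to 0.46 with adjusted p from 0.585 to 0.94. Without WT PBS CCl4 replicate 4, 7 of 8 genes rose in WT mice, all but Ciita, with H2-Ab1 at 1.07 (adjusted p = 0.00185) and H2-DMa at 1.57 (adjusted p = 0.000124). All genes called in either direction then numbered 7213, beside 6506 with all mice. Cd86 alone was called without WT PBS CCl4 replicate 1, 2 or 3 or WT T3 CCl4 replicate 3, 2 genes were called without WT T3 CCl4 replicate 4, and 4 without WT T3 CCl4 replicate 1. With library totals in place of TMM factors, which moves the median of all genes by -0.35 in this comparison, none of the 8 was called.

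CCl4 in mice without hormone did not move the class II genes past the threshold, although it changed 46.2% of all genes in WT and 31.1% in KO mice. Cd86 was the exception in WT mice, where 1 of 8 genes rose beside 24.6% of all genes. In KO mice 0 of 8 were called by edgeR or DESeq2, with 0 at an unadjusted p below 0.05. The 7 genes other than Cd86 had log2 fold changes from -0.18 to 0.22 in WT and from -0.21 to 0.19 in KO mice, with SE between 0.25 and 0.47. The WT values depended on 1 mouse and on the scaling. The WT median of the 8 was -0.05, and -0.43 without WT PBS CCl4 replicate 4, with values from -0.64 to 0.82. With library totals, which move the median of all genes by 0.40 here, it was 0.32. Cd86 rose by 0.86 ± 0.25 in WT mice (adjusted p = 0.00556), the CCl4 mice lying above the oil mice without overlap (16.6% of all genes). In KO mice Cd86 had a value of 0.41 ± 0.25 (adjusted p = 0.205, and 0.0254 with library totals). H2-Ab1 was at 14.4, 15.7, 12.2 and 33.4 CPM in WT PBS CCl4 and 14.3, 20.6, 14.3 and 20.3 in KO PBS CCl4, and only the replicate that stood apart exceeded the oil groups. No difference between the genotypes in this response was called, with 0 of 8 genes by edgeR or DESeq2 and 0 at an unadjusted p below 0.05 (0.0192% of all genes called). With both mice that stood apart left out, H2-Ab1 fell with CCl4 in WT PBS mice by 0.61 (adjusted p = 0.0286).

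Among T3-treated mice the class II genes were lower with CCl4 in the KO. There 6 of 8 fell (19.8% of all genes fell) and 7 of 8 separated completely downward (18.6% of all genes). The median log2 fold change was -0.98, beside 0.00 over all genes rounded to 2 decimals. In WT mice 0 of 8 were called by edgeR or DESeq2 in the same comparison, with 0 at an unadjusted p below 0.05, where 3.4% of all genes were called and the median was -0.30. Without WT T3 oil replicate 4 that median was 0.01 and the 8 values ran from -0.33 to 0.19, none of them called. The genotype difference itself was called for none of the 8 genes, as given with the other differences between responses.

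Cd74 was at 82.1, 125, 129.6 and 109 CPM in KO T3 oil and 44.8, 50.3, 56.9 and 40.5 in KO T3 CCl4, a change of -1.21 ± 0.27 (adjusted p = 0.000958). H2-Ab1 was at 18.7, 17.4, 21.7 and 15.2 CPM in KO T3 CCl4 and changed by -1.10 ± 0.28 (adjusted p = 0.00324). H2-Aa changed by -0.98 ± 0.28 and H2-Eb1 by -0.93 ± 0.26 (adjusted p = 0.00707 and 0.00526). All 4 KO T3 CCl4 mice lay below all 4 KO T3 oil mice in each of these genes, inside the range of the KO PBS groups or close to it. Ciita, at 0.881, 1.11, 0.999 and 1.39 CPM, changed by -1.40 ± 0.43 (adjusted p = 0.0121), and H2-DMa, at 3.96, 3.73, 3.59 and 3.03 CPM, by -0.97 ± 0.32 (adjusted p = 0.0186). H2-DMb1 had a value of -0.72 ± 0.35 and was not called (adjusted p = 0.101). Cd86 had a value of -0.04 ± 0.23 (adjusted p = 0.913), so the co-stimulatory gene did not pass the test where the class II genes fell. H2-DMa lost its call without KO T3 CCl4 replicate 4 (adjusted p = 0.0535) or KO T3 oil replicate 3 (0.0562), and with library totals (-0.80, adjusted p = 0.0529). No other call of this comparison was lost by leaving out a mouse. H2-DMb1 was called with only the groups compared in the fit (-0.71, adjusted p = 0.0247), and without the 2 mice that stood apart (-0.72, adjusted p = 0.0467). The KO T3 oil group enters both this comparison and the T3 comparison on oil, so their values are not independent.

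Whether these responses differed between settings was tested directly. The T3 response differed between CCl4 and oil in WT mice for 1 of 8 genes, Cd86, with a difference of -1.17 ± 0.34 (adjusted p = 0.0141, where 13.1% of all genes were lower). Without WT T3 oil replicate 4 the Cd86 value was -0.88 and not called (adjusted p = 0.0521). With all mice the 8 values ran from -1.17 to -0.15, with a median of -0.30. Without both mice that stood apart they ran from -0.85 to 0.75, with a median of 0.46, and 0 was called. In KO mice 0 of 8 were called by edgeR or DESeq2, with 6 at an unadjusted p below 0.05 (3.71% of all genes called). All 8 values were negative there, from -1.42 for Ciita to -0.45 for Cd86, and the smallest adjusted p was 0.13 for Cd74. The CCl4 response on T3 differed between genotypes in 0 of 8 genes by edgeR or DESeq2, with 1 at an unadjusted p below 0.05, Cd74 at -0.93 ± 0.38 (adjusted p = 0.095, 13.5% of all genes called). Without WT T3 oil replicate 4, Cd74 (-1.25, adjusted p = 0.0321) and H2-Aa (-1.17, adjusted p = 0.0369) were called. The T3 response on CCl4 differed between genotypes in 0 of 8 genes by edgeR or DESeq2, with 0 at an unadjusted p below 0.05 (22.7% of all genes called), and without WT PBS CCl4 replicate 4 in 2, H2-Ab1 (adjusted p = 0.0359) and H2-DMa (-1.26, adjusted p = 0.018), the T3 response being lower in the KO for both.

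**Figure D3:**
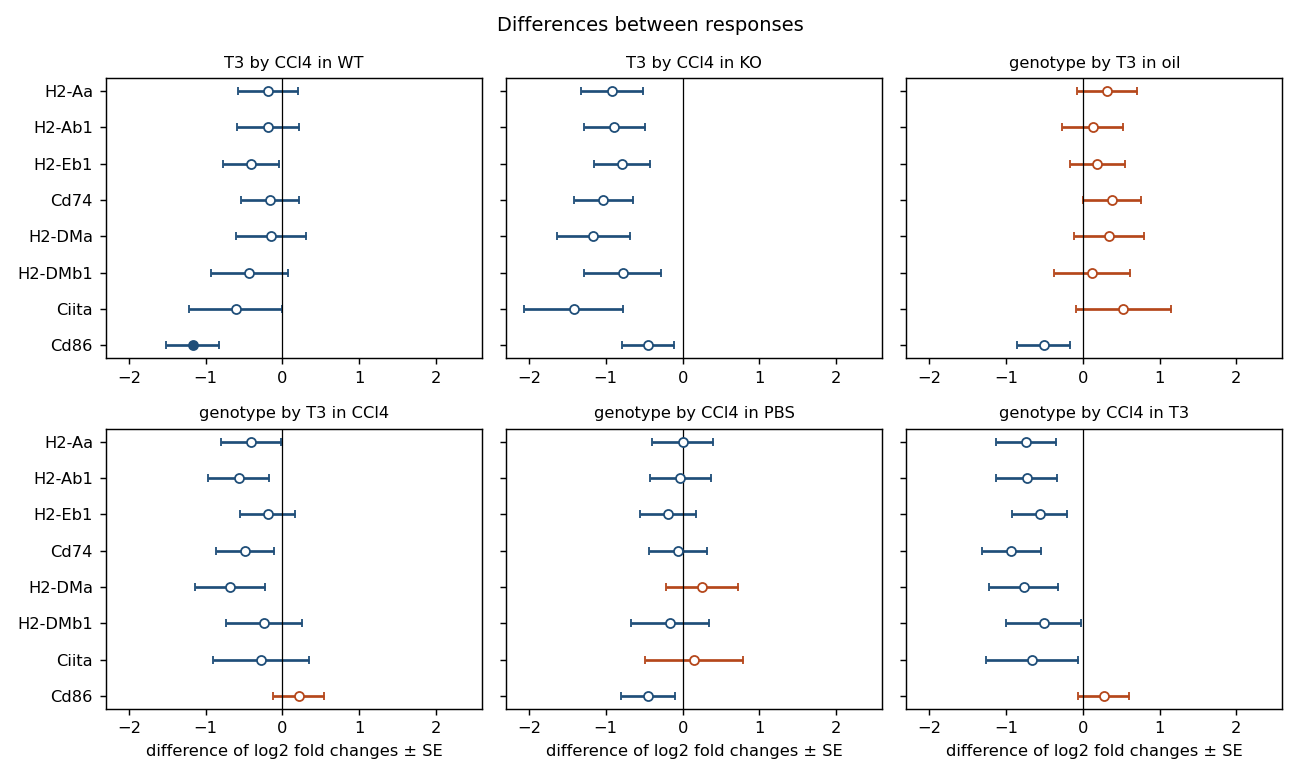
Difference between 2 responses of each gene, in log2 units ± SE (horizontal axes), in the 6 settings tested; filled points were called at an adjusted p below 0.05. Only Cd86 is filled, for the T3 response on CCl4 minus that on oil in WT mice, while in KO mice all 8 open points of that difference lie left of 0.

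The genotypes were also compared directly in each treatment. Between KO and WT mice 0 of 8 genes were called by edgeR or DESeq2 in PBS oil, PBS CCl4 or T3 oil, with 0 at an unadjusted p below 0.05 in each, where 0.538%, 2.25% and 16.3% of all genes were called. The median of the 8 values was -0.24 in PBS CCl4 and 0.05 in T3 oil. Without both mice that stood apart these medians were 0.17 and 0.38. In T3 CCl4 0 of 8 were called by edgeR or DESeq2, with 3 at an unadjusted p below 0.05, beside 22.9% of all genes called. Those 3 were Cd74 at -0.67 ± 0.27, H2-Ab1 at -0.70 ± 0.28 and H2-DMa at -0.69 ± 0.32 (adjusted p = 0.0718, 0.0751 and 0.124). All 8 values were negative, from -0.78 to -0.16, and Ciita and H2-Ab1 separated completely, 2 of 8 beside 16.1% of all genes. H2-Ab1 was at 22.6, 23.7, 31.6 and 40.5 CPM in WT and at 18.7, 17.4, 21.7 and 15.2 in KO mice, a narrow gap. Without WT T3 CCl4 replicate 1, Cd74 was called (-0.80, adjusted p = 0.0428). With only the 2 groups compared in the fit, 5 genes were called, Cd74, Ciita, H2-Aa, H2-Ab1 and H2-DMa. The 22.9% of all genes belongs to the fit of all 32 libraries. No share is given for the fit of 2 groups, so these 5 calls cannot be set against one.

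The class II chains and Cd74 varied together from mouse to mouse. Over the 32 libraries Pearson's r of log2(CPM + 0.5) between pairs of H2-Aa, H2-Ab1, H2-Eb1 and Cd74 was 0.96 to 0.98, and 0.93 to 0.97 when each library was expressed as its deviation from the group mean. Ciita followed these 4 genes less closely (0.84 to 0.87, and 0.65 to 0.68 for deviations), and Cd86 had r of 0.63 to 0.71 with them (0.63 to 0.69 for deviations). The libraries share depth and groups, so these are descriptions without a test. The 8 genes outside the list with the highest r to the mean z-score of the 4 were Cd37 (0.93), Mndal (0.89), Trpm2 (0.88), Cd22 (0.87), Agtrap (0.87), Aatk (0.86), H2-Ob (0.86) and H2-DMb2 (0.86). Cd37 is a tetraspanin of B cells and other leukocytes, Cd22 a B-cell receptor for sialic acid, and H2-Ob a chain of H2-O, which restrains H2-DM and is best known from B cells. Cd37, Mndal, Trpm2, Agtrap and Aatk are in none of the cell marker lists used here.

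**Figure D4:**
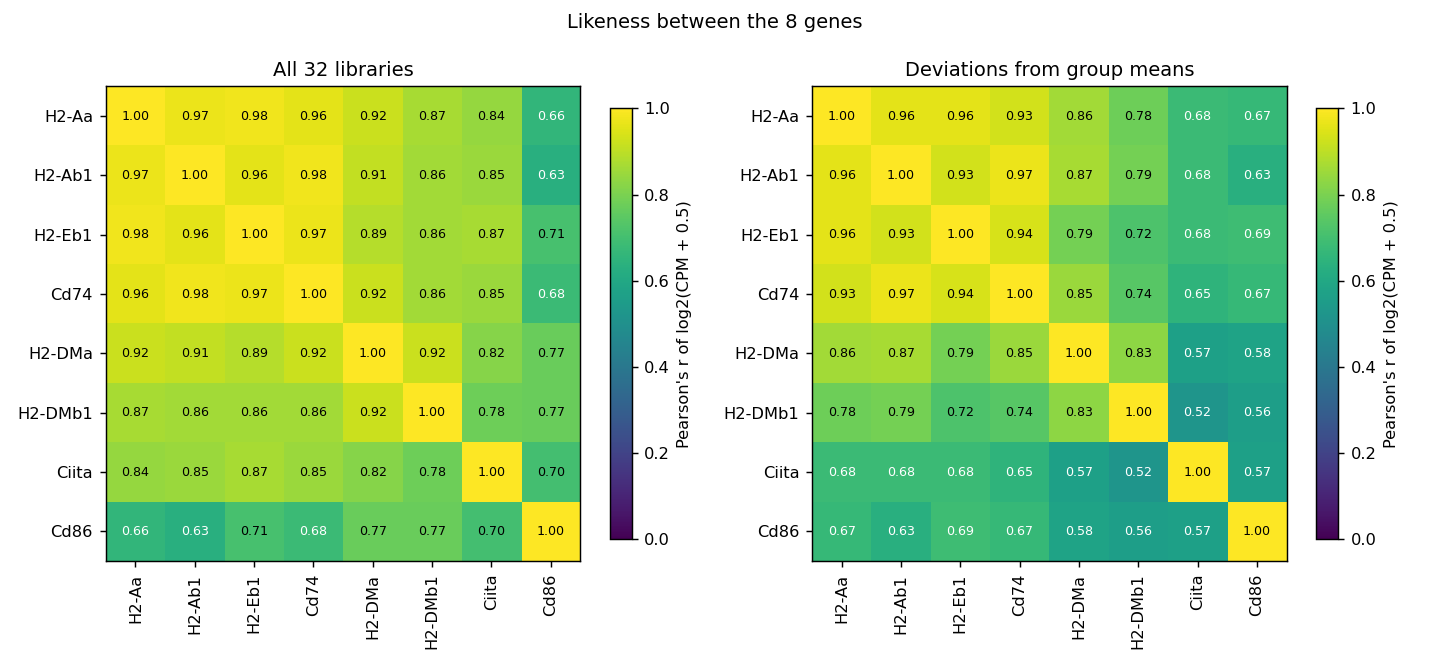
Pearson's r of log2(CPM + 0.5) between each pair of the 8 genes over 32 libraries (left) and of deviations from group means (right); colour runs from 0 to 1. H2-Aa, H2-Ab1, H2-Eb1 and Cd74 form a block at 0.93 or above in both panels, and Cd86 has the lowest values with the class II genes over all libraries.

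Other genes of the class II pathway were read from a list of 22, of which 21 were tested. With T3 on oil 9 rose and 3 fell in WT mice, and 9 rose and 1 fell in KO mice, beside 19% higher and 16.2% lower of all genes in WT and 10.6% and 8.11% in KO mice. The list medians were 0.83 and 0.89, beside -0.02 and 0.01 over all genes. The proteases that process antigen and the invariant chain were among them. Ctss, which encodes cathepsin S, ranged over 16.7 to 29.5 CPM in WT PBS oil and 76.9 to 138 in WT T3 oil and rose by 2.02 ± 0.28 (adjusted p = 1.43e-06), with 1.59 ± 0.28 in KO mice (adjusted p = 0.000126). Lgmn, a lysosomal endopeptidase, rose by 1.37 ± 0.23 in WT and 1.14 ± 0.23 in KO mice (adjusted p = 2.1e-05 and 0.000655), and March1, a ligase that removes class II from the surface, by 2.02 ± 0.33 and 1.74 ± 0.34 (adjusted p = 2e-05 and 0.000487). Ctsl, the gene of cathepsin L, fell with T3 on oil in WT mice (-0.76, adjusted p = 0.0256), as did Nfyb, a subunit of the Y box factor (-1.06, adjusted p = 0.000107). With T3 on CCl4 5 of the 21 rose and 1 fell in WT mice, beside 20% and 21.7% of all genes, and 1 rose and 0 fell in KO mice, beside 1.77% and 0.769%. The WT counts are close to or below these shares.

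With CCl4 in WT PBS mice 5 of 21 rose and 3 fell, below the 24.6% and 21.6% of all genes, so these counts are no result about the list. The genes that rose included Lgmn (1.71 ± 0.23, adjusted p = 2.5e-06), Ctss (1.30 ± 0.27, adjusted p = 0.000389) and Ctsl (1.22 ± 0.27, adjusted p = 0.000562), in a comparison where none of the class II chains passed the test. With CCl4 in KO T3 mice 3 rose and 4 fell, again below the 19.7% and 19.8% of all genes. H2-Ob had the smallest adjusted p among them and fell by 2.38 ± 0.40 (adjusted p = 6.07e-05), and its mean ± SD was 5.60 ± 2.19 CPM in KO T3 oil and 1.06 ± 0.486 in KO T3 CCl4. H2-DMb2, another gene for the H2-DM beta chain, fell by 1.77 ± 0.39 (adjusted p = 0.000824), whereas Lgmn rose by 1.15 ± 0.22 (adjusted p = 0.000281). H2-DMb1 and H2-DMb2 are near copies, so their reads may be shared.

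Of 20 genes of the interferon gamma axis, 18 were tested, and Ifng itself did not pass the filter. With T3 on oil 13 of 18 rose and 0 fell in each genotype, beside 19% of all genes higher in WT and 10.6% in KO mice. Gbp3, an interferon-inducible GTPase, ranged over 1.93 to 3.70 CPM in WT PBS oil and 237 to 289.6 in WT T3 oil and rose by 6.49 ± 0.43 (adjusted p = 3.33e-12), with 3.22 ± 0.38 in KO mice (adjusted p = 7.13e-07). With T3 on CCl4 7 rose and 4 fell in WT mice, beside 20% and 21.7% of all genes, and 7 rose and 0 fell in KO mice, beside 1.77% and 0.769%. With CCl4 in WT PBS mice 9 rose and 1 fell, beside 24.6% and 21.6% of all genes. With CCl4 in KO T3 mice 3 rose and 5 fell, beside 19.7% and 19.8%. Irf1, which encodes a transcription factor that acts on Ciita, changed by -0.81 ± 0.18 in that comparison (adjusted p = 0.00112), and Ifngr1, a receptor chain, by 1.10 ± 0.15 (adjusted p = 6.02e-06). The T3 response of the list was lower on CCl4 than on oil in WT mice for 12 of the 18 genes and higher for 0, beside 13.1% and 10.8% of all genes.

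Marker genes of leukocytes moved in the same livers, and their part in the class II results was not tested. All markers of the lists below were tested, so none was at 0 throughout. With T3 on oil the 8 pan-leukocyte markers and the 11 Kupffer cell markers all rose in both genotypes, as did 6 of 10 dendritic cell markers in each, beside 19% of all genes higher in WT and 10.6% in KO mice. B-cell markers rose in 3 of 9 in WT and 8 of 9 in KO mice, with Cd22 at 1.03 ± 0.32 and 1.79 ± 0.33 (adjusted p = 0.0132 and 0.000298). Of 11 markers of monocyte-derived macrophages 8 rose in WT and 7 in KO mice. Of 11 T and NK cell markers 0 rose in WT and 6 in KO mice. Summed Kupffer markers ranged over 141 to 296 CPM in WT PBS oil, 1028 to 1657 in WT T3 oil, 168 to 235 in KO PBS oil and 783 to 1166 in KO T3 oil. Summed B-cell markers ranged over 7.87 to 17.8, 18.4 to 38.7, 7.59 to 21.5 and 25.7 to 51.9 CPM in the same groups. WT T3 oil replicate 4, the mouse that stood apart, had the highest sum of its group for pan-leukocyte (298.6 CPM), B-cell (38.7), dendritic cell (55.9) and Kupffer cell markers (1657). WT PBS CCl4 replicate 4 had the highest sum of its group for Kupffer cell (488.4) and B-cell markers (16.7). It was not the highest for pan-leukocyte markers (155.2, with 157.6 in replicate 2) or dendritic cell markers (38.3, with 46.7 in replicate 2). Nor was it the highest for markers of monocyte-derived macrophages (252.6, with 447.7 in replicate 1) or T and NK cells (5.78, with 9.65 in replicate 3).

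With CCl4 in PBS mice 24.6% of all genes rose and 21.6% fell in WT, and 17.8% rose and 13.4% fell in KO mice. There 7 of 8 pan-leukocyte markers rose in each genotype, and 10 of 11 markers of monocyte-derived macrophages rose in WT and 8 of 11 in KO mice, while 0 of 9 B-cell markers was called by edgeR and none of the class II chains passed the test. Of 8 hepatocyte markers 6 fell in WT PBS mice, and their sum ranged over 118259 to 170051 CPM in WT PBS oil and 47941 to 69081 in WT PBS CCl4, without overlap. Of 9 stellate cell markers 7 rose and 1 fell in WT PBS mice, and of 8 sinusoidal endothelial markers 1 rose and 4 fell. In KO T3 mice, where the class II genes fell with CCl4, all 9 B-cell markers fell (list median -2.24). In that comparison 7 of 11 T and NK cell markers and 6 of 11 Kupffer cell markers fell, beside 19.8% of all genes, and 0 of 8 pan-leukocyte markers was called. Other macrophage markers rose there. Marco, a scavenger receptor and the 1 Kupffer cell marker that rose, rose by 2.84 ± 0.41 (adjusted p = 1.14e-05), and 5 of 11 markers of monocyte-derived macrophages rose and 0 fell, beside 19.7% of all genes higher. Gpnmb, a macrophage glycoprotein, rose by 4.74 ± 0.66 (adjusted p = 6.99e-06) and Chil3, a chitinase-like protein of macrophages, by 3.97 ± 0.52 (adjusted p = 3.82e-06). Summed B-cell markers were 25.7 to 51.9 CPM in KO T3 oil and 7.22 to 11.3 in KO T3 CCl4, and pan-leukocyte markers 139 to 218 and 149 to 182. Markers of dendritic cells went in both directions there, with Xcr1, a marker of cross-presenting dendritic cells, at -1.59 ± 0.41 (adjusted p = 0.00299) and Itgax, a broader marker, at 0.73 ± 0.28 (adjusted p = 0.0383).

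**Figure D5:**
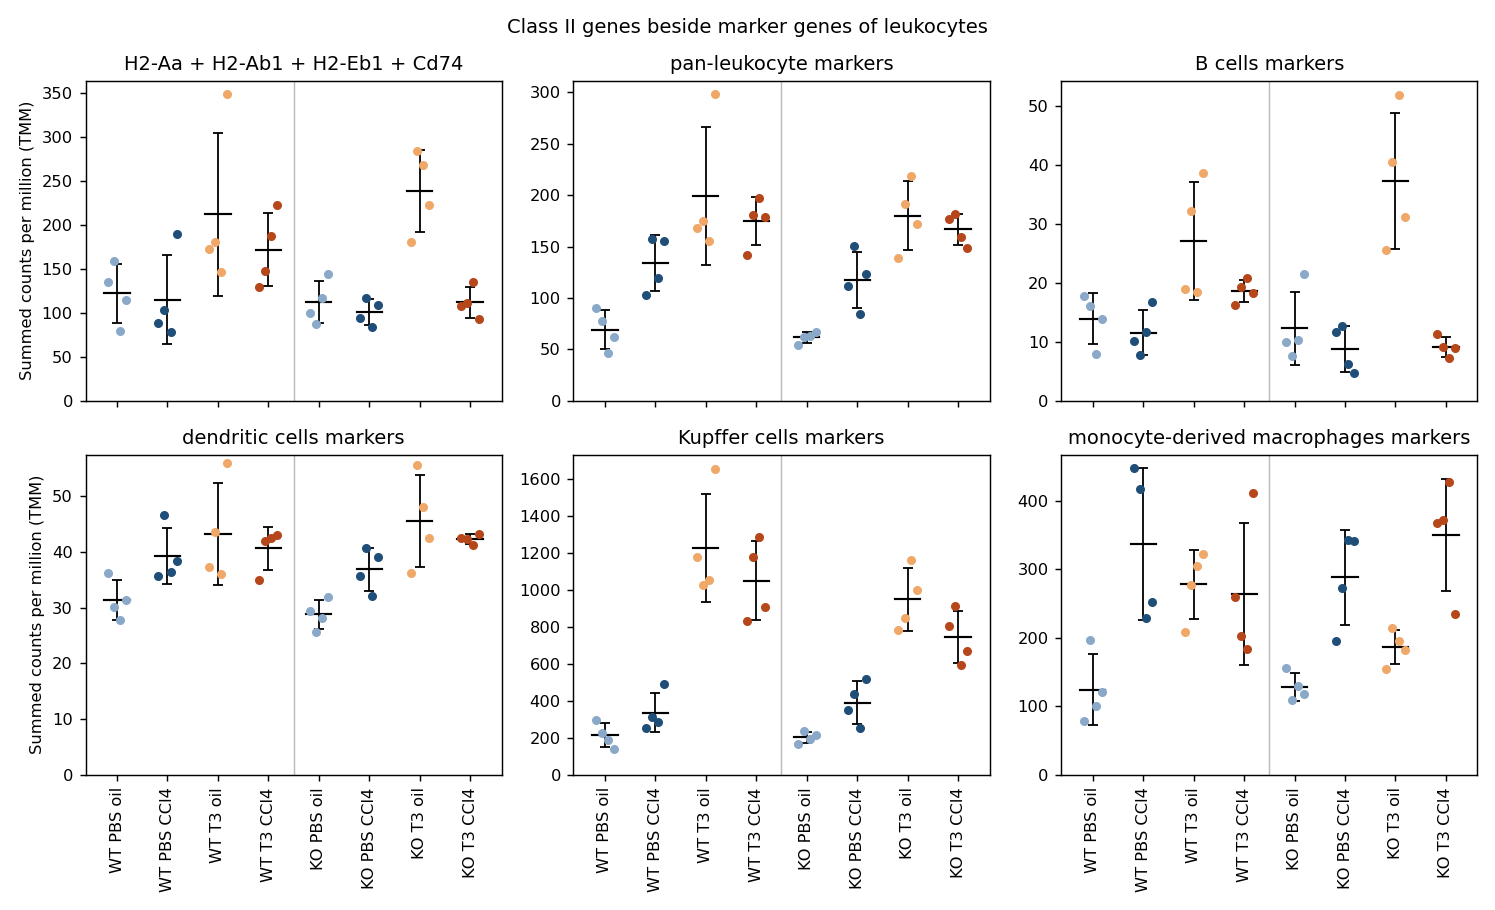
Summed CPM (vertical axes, linear, from 0) of 4 class II genes and of 5 lists of marker genes in the 8 groups; points are mice, bars the mean and SD of 4. The class II sum and the B-cell sum are high in the T3 oil groups and low in KO T3 CCl4, whereas the pan-leukocyte sum in KO T3 CCl4 (149 to 182) lies inside that of KO T3 oil (139 to 218).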

How the data were processed

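The authors deposited a table of raw read counts per gene for 32 libraries. Per the submitters' processing notes, reads were checked with FastQC 0.11.5, trimmed with Trim Galore and cutadapt and aligned with STAR 2.7.9a to GRCm38. For the counting tool, strand setting and annotation release: not given in the sources used here. Per the labels' protocols, libraries came from a TruSeq v2 or a stranded TruSeq kit, not said for which library. Symbols and positions came from GENCODE vM21, matching 52489 of 52636 identifiers, and the 147 without a symbol held at most 0.00558% of a library.

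From the counts, edgeR 4.0.16 (R 4.3.3, limma 3.58.1) fitted all 32 libraries in 1 quasi-likelihood model with a mean per group, after filterByExpr (minimum count 10, minimum total 15), with TMM factors from 0.85 to 1.35, and Benjamini-Hochberg adjustment over 15599 genes, called at 0.05. The genes tested held at least 99.5% of each library, and depth ranged from 16985162 to 26118055 counts. On simulated counts for T3 in WT oil, run on 15318 genes, 94.1% of genes changed by a log2 of 2 were recovered. That share does not apply to smaller changes. Of the listed genes only Cd86 (1.96) changed by about that much in this comparison. Every library had its own animal number, and nothing else says how the mice were housed or chosen.

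Alternatives were DESeq2 1.42.0, its size factors, library totals, no filter, a replicate block, only the groups compared, each library left out, and, added after seeing the data, both class II-high libraries left out. The CCl4 by genotype tests were also added then. Replicate numbers did not pair the mice. The 8 genes and all gene lists were chosen with earlier results of these data known. Named were all 8 genes, Thrb, in each list at most 4 called genes, taken by adjusted p, plus at most 3 whose call went the other way than most, and the 8 genes with the highest correlation to the class II chains and Cd74. H2-Ea of the list is H2-Ea-ps in GENCODE. Brd2 and Dexi were named for their overlap. Tables were handled in Python 3.11.15 with pandas 2.3.3.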

Additional observations from a re-analysis of the deposited data

Results flagged for a closer look

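Of 64 sets of 4 mice (8 genes in 8 groups), 8 held a mouse far from the other 3 by Dixon's test, which chance gives in about 1 in 20 sets. The 8 genes vary together in the same mice, so the sets are not independent. The count of flagged sets can therefore not be judged against that rate. WT PBS CCl4 replicate 4 was high for H2-Aa (44.3 CPM), H2-Ab1 (33.4 CPM), H2-DMa (5.86 CPM) and H2-DMb1 (4.32 CPM). WT T3 oil replicate 4 was high for H2-Aa (79.95 CPM) and H2-Eb1 (58.8 CPM). KO T3 oil replicate 3 was high for H2-DMa (8.47 CPM), and WT PBS CCl4 replicate 1 was low for Cd86 (3.45 CPM).

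Of 48 tests of a difference between 2 responses, 1 was called by edgeR's quasi-likelihood test with Benjamini-Hochberg adjustment. The T3 response of Cd86 in WT mice was lower on CCl4 than on oil, with a difference of -1.17 (adjusted p = 0.0141). In that comparison 13.1% of all genes were lower, so 1 of 8 listed genes is close to that share. The call was lost without WT T3 oil replicate 4 (adjusted p = 0.0521) or without both mice that stood apart (0.0555).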

How the results depend on the processing

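With DESeq2, all genes called numbered 681 for T3 in KO CCl4, 144 for KO in PBS oil and 731 for KO in PBS CCl4 (396, 84 and 351 in edgeR). With library totals 1 of the 8 genes was called for CCl4 in KO PBS (Cd86) and 0 for T3 in WT CCl4, and 6004 of all genes for T3 by CCl4 in WT (3722 with TMM). With no filter 205 of all genes were called for KO in PBS CCl4. With only the groups compared in the fit, the 8 genes gave 1 call for T3 in WT CCl4, 0 for T3 in KO CCl4, 5 for KO in T3 CCl4, and 1 each for T3 by CCl4 in KO and genotype by CCl4 in T3. All genes called then numbered 4504 for CCl4 in WT PBS, 818 for CCl4 in WT T3, 4143 for T3 in WT CCl4, 86 for T3 in KO CCl4, 3 for KO in PBS CCl4, 2300 for genotype by T3 in CCl4, 0 for genotype by CCl4 in PBS and 3489 for genotype by CCl4 in T3. Without both mice that stood apart, the 8 genes gave 2 calls for CCl4 in WT PBS, 2 for T3 in WT oil, 7 for T3 in WT CCl4, 4 for KO in T3 CCl4, 4 for genotype by T3 in CCl4, 0 for T3 by CCl4 in WT, 1 for T3 by CCl4 in KO and 5 for genotype by CCl4 in T3. All genes called then numbered 353 for CCl4 in WT T3, 1736 for KO in PBS CCl4 and 9 for genotype by CCl4 in PBS. Apart from smaller samples or gene sets, the cause was not tested.

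With each mouse left out in turn, calls among the 8 genes ranged from 1 to 8 for T3 in WT oil, 1 to 7 for T3 in WT CCl4, 5 to 8 for T3 in KO oil, 0 to 1 for T3 in KO CCl4, 0 to 1 for KO in T3 CCl4, 0 to 2 for genotype by T3 in CCl4, 0 to 1 for T3 by CCl4 in WT and 0 to 2 for genotype by CCl4 in T3. All genes called ranged from 328 to 482 for CCl4 in WT T3, 2992 to 4723 for CCl4 in KO PBS, 165 to 582 for T3 in KO CCl4, 46 to 99 for KO in PBS oil, 70 to 1746 for KO in PBS CCl4, 319 to 771 for T3 by CCl4 in KO, 0 to 14 for genotype by CCl4 in PBS and 1293 to 2366 for genotype by CCl4 in T3. KO in PBS CCl4 gave its fewest without WT PBS CCl4 replicate 2 and its most without replicate 4.

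Cd86 for CCl4 in KO T3 (-0.04) changed sign with library totals (0.12), with no filter (0.00) and without KO T3 CCl4 replicate 3 (0.02) or 4 (0.03) or KO T3 oil replicate 3 (0.01), within -0.12 to 0.03 over all mice left out. Of 101 further values of the 8 genes that did not reach an unadjusted p of 0.05, which the text gives mostly as ranges, the sign changed in 0 with DESeq2, its size factors, no filter or only the groups compared, in 6 with the replicate block, in 15 with library totals and in 26 without both mice that stood apart. It changed in 117 of 1128 such values with 1 mouse left out. The direction of these uncalled values is therefore not established.

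Same-numbered mice had correlations of deviations from -0.414 to 0.569, so the numbers did not pair them. The replicate block moved the calls among the 8 genes only for T3 in WT CCl4, from 3 to 4, with H2-Ab1 gained (0.69, adjusted p = 0.0311).

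Library totals moved the median log2 fold change of all genes by 0.40 for CCl4 in WT PBS, 0.31 for CCl4 in KO PBS, 0.16 for CCl4 in KO T3, 0.12 for T3 in WT oil, -0.35 for T3 in WT CCl4 and -0.48 for T3 by CCl4 in WT. The share of calls that were higher went from 53.2% to 81.8%, 57.1% to 86.3%, 49.9% to 64.3%, 54% to 67.1%, 47.9% to 20.3% and 45.2% to 10.3% in these comparisons. It went from 49% to 24.4% for CCl4 in WT T3, 56.7% to 70.6% for T3 in KO oil, 69.7% to 44.2% for T3 in KO CCl4, 53.8% to 30.1% for KO in PBS CCl4, 43.7% to 29.2% for KO in T3 oil, 45.5% to 61.1% for KO in T3 CCl4, 45.3% to 67.8% for genotype by T3 in CCl4, 31% to 11.2% for T3 by CCl4 in KO and 46.1% to 73.2% for genotype by CCl4 in T3. Ciita, with as few as 4 counts in a library, is limited most by depth.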
